A study of Homo sapiens with 4 samples.

Results

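The genes described here are neighbours on the distal long arm of chromosome 1 (1q) whose transcript 5′ ends were mostly more abundant in cisplatin-resistant than in wild type UM-UC-3 cells. They were chosen by symbol, with the difference between resistant and wild type cells already known, so their values in that contrast, and the calls given for them, describe the choice and are no independent test. Of 56 symbols, 54 had a row in the deposited table of 13743 genes, and the symbols ITPKB and SIPA1L2 had none. All 54 lay on chromosome 1 in the annotation and had a mean of at least 1 CPM (counts per 1000000 reads in the listed genes). The name "raised together" did not hold for every gene, since TMEM63A was lower in resistant cells. UM-UC-3 is an established human urothelial carcinoma cell line, and the study profiled it by cap analysis of gene expression (CAGE), which counts reads at the capped 5′ ends of transcripts. The groups were 2 samples of a cisplatin-resistant subline, which the submitters derived from wild type UM-UC-3, grown in DMEM with serum and 5 µM cisplatin, and 2 samples of wild type UM-UC-3 cells, for which no medium is stated. Resistance and the presence of the drug in culture cannot be told apart, and the labels do not say whether the subline is a clone. Nor do they say that samples of a group came from separate cultures, so the spread behind each p-value may be technical.

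Neighbouring genes on a chromosome usually serve unrelated functions, and each has its own promoter or shares one with a gene on the other strand. The amount of RNA from a stretch of chromosome depends, among other things, on how many copies of it a cell carries, and gains of 1q are known from many human carcinomas, bladder cancer included. No copy number data were used here, and its part in these values was not tested. In bulk samples, a change in the share of cells that express a gene and a change in RNA per cell cannot be told apart.

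Read totals, in units of 1000000 reads and taken from the step size of the CPM values, were 21.2 and 17.8 in resistant and 18.2 and 18.2 in wild type samples. Across all tested genes, the log2(CPM + 1) values correlated at r = 0.996 between the resistant samples, 0.995 between the wild type samples, and 0.952 to 0.953 between groups; genes are not independent replicates. Of the urothelial and epithelial markers, KRT7, KRT8 and KRT18 had a row, with summed levels of 144 and 139 CPM in resistant and 407 and 402 CPM in wild type samples. The sum follows KRT8 and KRT18, while KRT7 read 10.1 and 10.0 CPM in resistant and 5.32 and 5.56 CPM in wild type samples. KRT5, GATA3, UPK2, UPK3A, EPCAM and CDH1 had no row. The mesenchymal intermediate filament gene VIM read 1432 and 1343 CPM in resistant and 1365 and 1336 CPM in wild type samples, and the mesenchymal cadherin CDH2 read 44.4 and 39.8 CPM in resistant and 20.1 and 18.5 CPM in wild type samples. None of the 5 leukocyte or 3 endothelial markers had a row, and the 3 fibroblast and muscle markers with a row summed to 2.21 and 2.58 CPM in resistant and 0.87 and 0.94 CPM in wild type samples. The part of these marker differences in the results below was not tested.

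Resistant cells had about 2.00 times the wild type level of the distal 1q genes, as the median of 54 ratios of group means. The median log2 fold change on the log2(CPM + 1) scale was 0.96, against 0.09 over all 12587 tested genes. It lay between 0.91 and 1.00 in the 4 pairs of 1 resistant and 1 wild type sample. The same median was 0.00 between the resistant samples and -0.03 between the wild type samples. By limma's moderated test, adjusted over all tested genes, 49 of the 54 were called higher in resistant cells and 1 lower. Across all tested genes 33.5% were called higher and 21.6% lower, 55.2% in either direction. The share called higher dropped to 20.3% when resistant replicate 1 was left out, and to 21% when resistant replicate 2 was. The resistant pair was entirely above the wild type pair in 51 of the 54 genes, as in 46.1% of all tested genes, and entirely below it in 1, as in 32.3% of all tested genes. Because the genes were chosen on this contrast, nothing is read from these counts. The genes covered a wide range of levels, with means over the 4 samples between 1.49 and 359 CPM. The fold change hardly followed the level: its median was 0.91 in the 27 genes of lower and 0.98 in the 27 genes of higher mean, and Spearman's rho across the 54 genes, which share the same libraries, was 0.16.

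**Figure D1:**
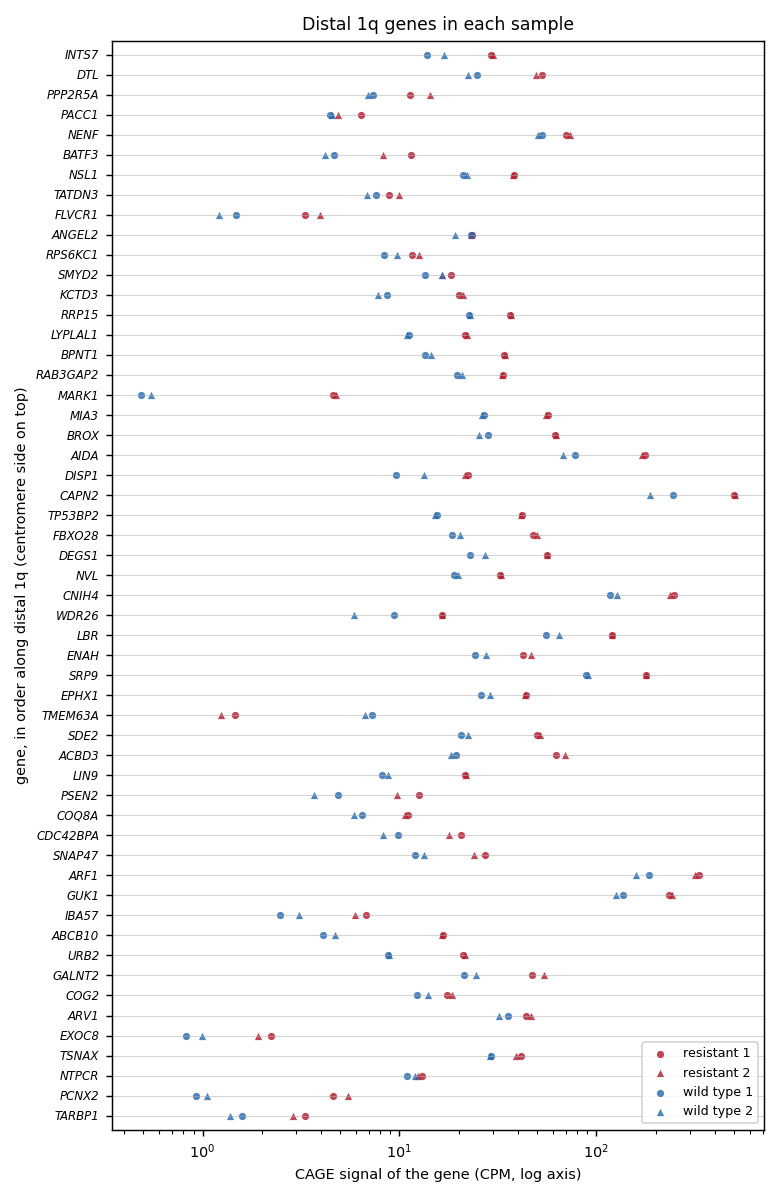
CAGE signal in CPM (log axis) of the 54 distal 1q genes, listed from the centromere side (top) to the telomere side (bottom), with 1 point per sample (red, resistant; blue, wild type; circle and triangle, replicates 1 and 2). The red points lie right of the blue ones in 51 genes, TMEM63A has the reverse order, and ANGEL2 and SMYD2 overlap between groups.

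Along the gene order of chromosome 1, the 54 genes spanned an interval of 103 tested genes from INTS7, on the centromere side, to TARBP1, on the telomere side. The shift was not even along it. The first 18 genes of the set, INTS7 to MARK1, had a median log2 fold change of 0.77. The next 18, MIA3 to ACBD3, had a median of 1.05, and the last 18, LIN9 to TARBP1, of 0.94. A running median over 15 consecutive tested genes, whether in the set or not, stayed between 0.91 and 1.09 over the 58 genes from BPNT1 to TAF5L; the level of 0.9 that delimits this stretch was chosen after the values were seen. Of these 58 genes, 52 were called higher and 4 lower in resistant cells, against 33.5% and 21.6% of all tested genes. These counts follow from how the stretch was cut, so nothing is read from them. Toward the telomere the shift declined within the interval and again past its end. The decline was not steady. The running median was 0.97 at TAF5L, 0.75 at URB2, again 0.97 at COG2 and 0.43 at SPRTN, 13 tested genes before TARBP1. The last 15 tested genes of the interval had a median log2 fold change of 0.47, with 11 called higher, whereas the first 15 beyond TARBP1 had a median of 0.01, with 2 called higher and 3 lower. These 15 log2 fold changes ranged from -0.36 to 0.54. TOMM20, a mitochondrial import receptor 4 tested genes beyond TARBP1, read 83.2 and 89.3 CPM in resistant and 77.6 and 85.0 CPM in wild type samples. It shared all its values with the row SNORA14B, also among the 15. On the centromere side the values before and after the end of the interval were close. The last 15 tested genes before INTS7 had a median of 0.34, and the first 15 from INTS7 on had a median of 0.39. The 30 tested genes on the centromere side of the interval had a median of 0.43 and the 30 on the telomere side of -0.13. The 1054 tested genes of chromosome 1 further toward and beyond the centromere had a median of 0.10. This pool hides its part nearest the interval, where the running median was 0.28 at KDM5B, 0.55 at ZC3H11A and 0.72 at NFASC. It did not climb steadily toward the interval. At ZNF281, further out than KDM5B, it was 0.37, and past NFASC it fell to 0.34 at NEK2, among the 30 genes next to the interval. The shift thus did not end with the 30 genes on the centromere side. The limits of the interval were set by the choice of genes, so these values describe where the shift lay.

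**Figure D2:**
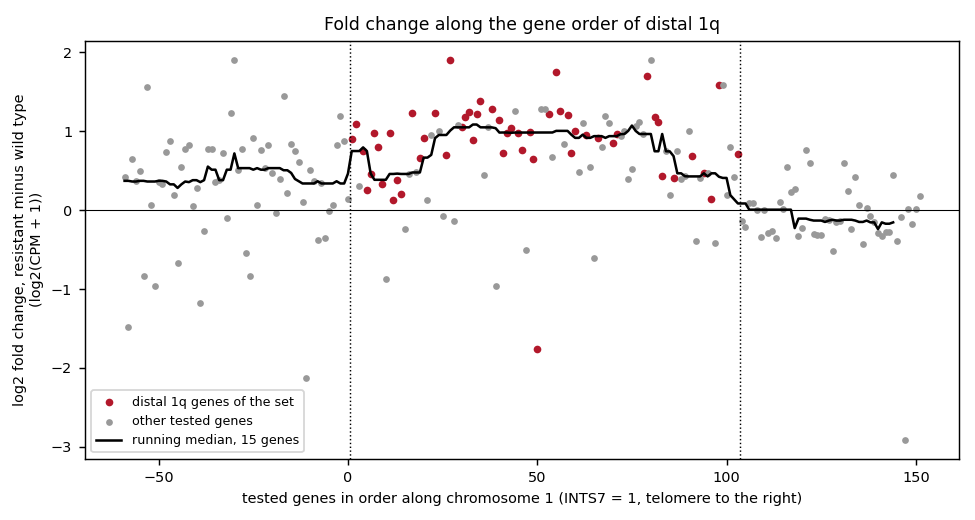
Log2 fold change (resistant minus wild type, log2(CPM + 1) scale) of tested genes in their order along chromosome 1, counted from INTS7; red points are the 54 genes of the set, grey points other tested genes, the black line a running median of 15 genes and the dotted lines the ends of the interval. The line runs at 0.91 to 1.09 over the stretch from BPNT1 to TAF5L and near 0 beyond TARBP1.

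Among 7 genes of cell cycle, mitosis and chromatin, 6 were called higher and 0 lower, with a median log2 fold change of 0.98. TP53BP2, which encodes a partner of p53 that favours apoptosis, read 41.7 and 41.5 CPM in resistant samples, against 15.6 and 15.1 CPM in wild type samples, a ratio of 2.71. LIN9, a subunit of the MuvB core that switches between repressing and activating cell cycle genes, read 21.5 and 21.7 CPM in resistant and 8.12 and 8.76 CPM in wild type samples. Both genes stood clear of any overlap between groups. DTL, which directs the CRL4 ubiquitin ligase to the licensing factor CDT1 and to p21, read 53.1 and 49.6 CPM in resistant and 24.7 and 22.2 CPM in wild type samples. The transcription factor BATF3 and the inner nuclear membrane protein LBR had ratios of 2.22 and 1.99, and NSL1, of the MIS12 kinetochore complex, of 1.77. SMYD2, a lysine methyltransferase, was the exception, with 18.2 and 16.5 CPM in resistant and 13.5 and 16.5 CPM in wild type samples, so that the groups overlapped.

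Among 9 genes of RNA processing, translation and ribosome assembly, 8 were called higher and 0 lower, with a median of 0.73. SDE2, known from splicing and replication fork protection, read 50.2 and 51.9 CPM in resistant and 20.6 and 22.2 CPM in wild type samples. URB2, a nucleolar ribosome assembly factor, read 21.1 and 21.5 CPM in resistant and 8.77 and 8.81 CPM in wild type samples. SRP9, of the signal recognition particle, read 179 and 178 CPM in resistant and 88.3 and 90.9 CPM in wild type samples. In these genes the resistant samples lay well above the wild type samples, with little spread within groups. TARBP1, a tRNA methyltransferase, INTS7, a subunit of the Integrator complex that trims small nuclear RNAs, and the ribosome assembly factors NVL and RRP15 had ratios of 2.08, 1.92, 1.69 and 1.61. TSNAX, the partner of translin, had a log2 fold change of 0.47. ANGEL2, an RNA phosphatase, read 23.3 and 23.2 CPM in resistant and 23.2 and 19.2 CPM in wild type samples, and its groups overlapped.

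All 11 genes of secretory and membrane traffic were called higher, with a median of 0.96. ACBD3, a Golgi scaffold that recruits a phosphatidylinositol kinase, read 62.6 and 69.5 CPM in resistant and 19.3 and 18.3 CPM in wild type samples, a ratio of 3.51. BROX, an ESCRT-associated protein, and MIA3, which loads collagen at endoplasmic reticulum exit sites, had ratios of 2.30 and 2.11. ARF1, the GTPase that starts coat assembly at the Golgi, read 333 and 315 CPM in resistant and 185 and 158 CPM in wild type samples. CNIH4, a cargo export receptor, read 248 and 237 CPM in resistant and 117 and 128 CPM in wild type samples. These are among the most abundant of the 54 genes, and they moved by 1.89 and 1.98 times, close to the median of the set. EXOC8 of the exocyst, GALNT2, which starts O-glycosylation, SNAP47, a SNARE protein, and RAB3GAP2, a regulator of RAB GTPases, had ratios of 2.28, 2.22, 2.02 and 1.66. COG2 of the COG complex and ARV1, needed for sterol and lipid transport, were at the low end, with ratios of 1.37 and 1.33. COG2 was no longer called when either resistant replicate was left out, and ARV1 when resistant replicate 2 was.

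The 6 kinase, phosphatase and signalling genes were all called higher, with a median of 0.95. MARK1, a microtubule affinity-regulating kinase, had the largest fold change of the set, with 4.58 and 4.78 CPM in resistant and 0.49 and 0.55 CPM in wild type samples. The wild type values rest on 9 and 10 reads, so the ratio of 9 is imprecise. AIDA, an axin-interacting protein, read 176 and 171 CPM in resistant and 77.6 and 67.9 CPM in wild type samples. CDC42BPA, a kinase acting below CDC42, DISP1, which releases hedgehog ligands, and PPP2R5A, a regulatory subunit of protein phosphatase 2A, had ratios of 2.12, 1.91 and 1.79. RPS6KC1, a kinase-like protein of endosomes, read 11.6 and 12.6 CPM in resistant and 8.39 and 9.69 CPM in wild type samples. Its call ended when resistant replicate 1, resistant replicate 2 or wild type replicate 1 was left out, and under TMM, median-ratio and quantile scaling.

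All 4 genes of mitochondria, heme, iron-sulfur clusters and coenzyme Q were called higher, with a median of 0.97. ABCB10, an ABC transporter of the inner mitochondrial membrane needed for heme synthesis, read 16.7 and 16.5 CPM in resistant and 4.11 and 4.68 CPM in wild type samples, a ratio of 3.77. FLVCR1, a heme and choline transporter, IBA57, which helps assemble iron-sulfur clusters, and COQ8A, a regulator of coenzyme Q synthesis, had ratios of 2.69, 2.29 and 1.76. The 5 genes of proteolysis and ubiquitin ligases were all called higher, with the highest median of the 8 roles at 1.22 and the narrowest range, 1.04 to 1.28. CAPN2, the large subunit of m-calpain, read 501 and 504 CPM in resistant and 245 and 188 CPM in wild type samples, the highest level among the 54 genes. FBXO28, an F-box protein, PSEN2, a catalytic subunit of gamma-secretase, KCTD3, a BTB-domain protein, and WDR26, a subunit of the CTLH ligase, had log2 fold changes of 1.28, 1.20, 1.23 and 1.04.

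Of 6 lipid, nucleotide and small-molecule enzymes, 5 were called higher, with a median of 0.88. BPNT1, a nucleotidase that lithium inhibits, read 34.1 and 34.3 CPM in resistant and 13.5 and 14.5 CPM in wild type samples. DEGS1, which makes ceramide from dihydroceramide, LYPLAL1, a lysophospholipase-like protein, GUK1, the guanylate kinase, and EPHX1, the microsomal epoxide hydrolase, had ratios of 2.25, 1.96, 1.80 and 1.59. NTPCR, a nucleoside triphosphatase, was not called, with 13.0 and 12.4 CPM in resistant and 10.9 and 12.0 CPM in wild type samples. Of the 6 remaining genes 4 were called higher and 1 lower, with a median of 0.40. ENAH, an actin regulator at the leading edge, and NENF, a secreted neurotrophic factor, had ratios of 1.72 and 1.39. PACC1, the proton-activated chloride channel, was not called, with 6.37 and 4.89 CPM in resistant and 4.44 and 4.57 CPM in wild type samples.

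**Figure D3:**
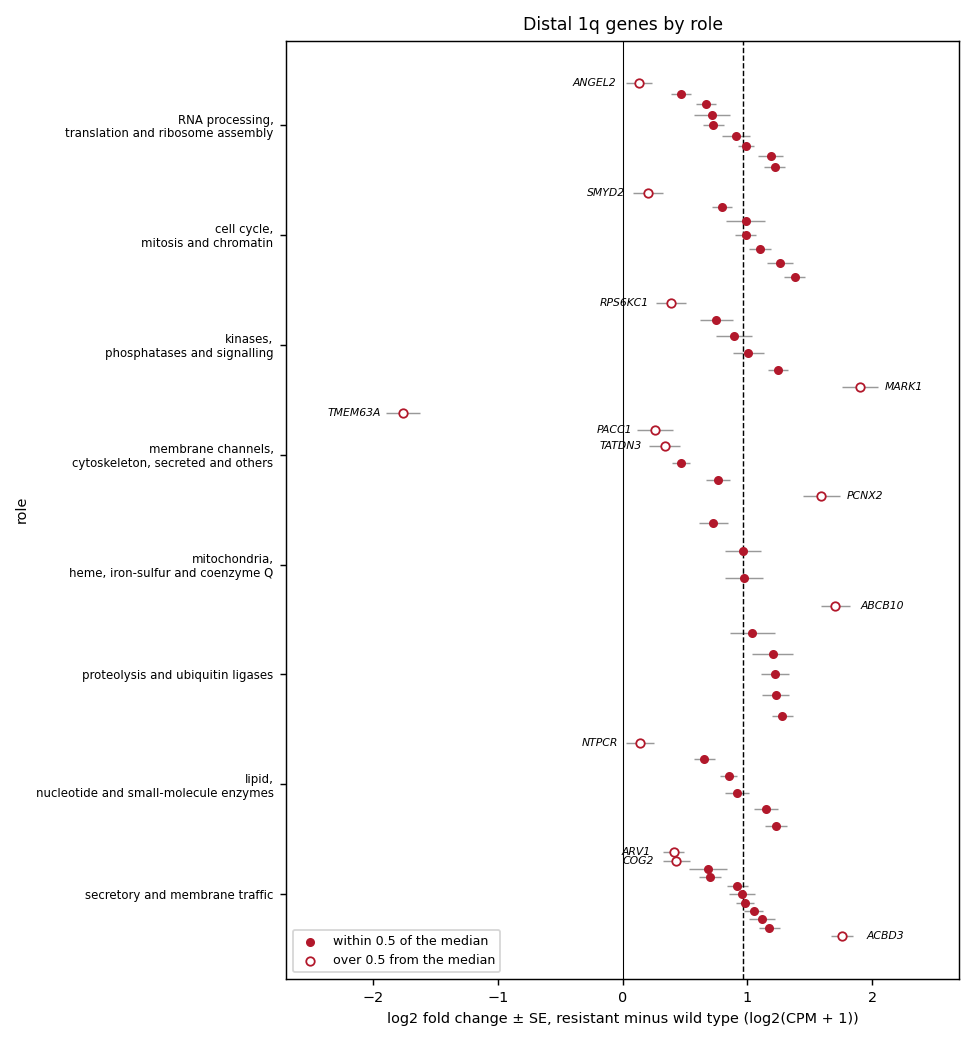
Log2 fold change ± SE of limma's fit (resistant minus wild type, log2(CPM + 1) scale) of the 54 genes, grouped by role; the dashed line is their median, 0.96, and open circles with names are genes over 0.5 from it. Of the open circles, 9 lie below the median and 4 above, with TMEM63A alone on the negative side.

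The shared shift was kept to within 0.5 on the log2 scale by 41 of the 54 genes and to within 0.25 by 27. The 13 others comprised 4 above and 9 below the median. The 4 above were MARK1, ACBD3 and ABCB10, given above, and PCNX2, a membrane protein of the pecanex family, which read 4.58 and 5.45 CPM in resistant and 0.93 and 1.05 CPM in wild type samples. PCNX2 shared all its values with the overlapping pseudogene row AL133380.1. The genes below were TMEM63A, ANGEL2, NTPCR, SMYD2, PACC1, TATDN3, RPS6KC1, ARV1 and COG2. Of these 9, 5 lay among the first 18 genes of the set, 1 among the next 18 and 3 among the last 18. The number of genes over 0.5 from the median depended on the processing. It was 15 with 0.5 or 0.1 CPM added instead of 1, and under TMM, median-ratio and quantile scaling. With 1 sample left out it lay between 9 and 14. The limit also parted close values. NENF and TSNAX, counted within it, differed from the median by -0.497 and -0.493 (SE 0.072 and 0.080). COG2, counted outside, differed by -0.530 (SE 0.107). TMEM63A, a mechanically gated ion channel, was the only gene of the set called lower, with 1.46 and 1.24 CPM in resistant and 7.29 and 6.66 CPM in wild type samples. It fell by 1.76 on the log2 scale (SE 0.14), whereas the overlapping gene EPHX1 on the opposite strand had 43.8 and 43.4 CPM in resistant and 25.9 and 28.9 CPM in wild type samples. TATDN3, of the TatD nuclease family, read 8.83 and 9.94 CPM in resistant and 7.62 and 6.83 CPM in wild type samples. Its call ended in 8 alternatives, those without resistant replicate 1, resistant replicate 2 or wild type replicate 2 among them.

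Several of the genes start head to head with a neighbour on the opposite strand, within 1000 bases in the annotation, and the fold changes of such pairs were not always alike. INTS7 and DTL had log2 fold changes of 0.91 and 1.10, and BROX and AIDA of 1.18 and 1.25. URB2 had 1.19 and its neighbour TAF5L, a subunit of a histone acetyltransferase complex, 1.91. NSL1 had 0.80 and TATDN3 0.34. FLVCR1 had 0.98, while its divergent transcript FLVCR1-DT had -0.87, with 0.99 and 1.24 CPM in resistant and 2.41 and 3.36 CPM in wild type samples. DEGS1 had 1.15, while the pseudogene row AC092809.3 had -0.97, with 54.7 and 57.5 CPM in resistant and 116 and 105 CPM in wild type samples. ARV1 had 0.41 and TTC13 0.19, EXOC8 had 0.69 and SPRTN 1.01, and TSNAX had 0.47 and the antisense row AL445524.1 0.41. Of the 9 pairs, 7 had both log2 fold changes on the same side of 0, all 6 pairs of protein-coding genes among them. The 2 pairs on opposite sides were those with FLVCR1-DT and AC092809.3. Every pair holds a gene of the set, which was chosen on this contrast. Of the 33 protein-coding rows of the interval outside the set, 29 were called higher. Nothing is therefore read from how many pairs lay on the same side. No source states whether the counting used strand, and reads of overlapping genes may not have been separated.

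Promoter windows, 250 bases before to 50 after a RefSeq start, are shown for the gene nearest the median of the set (SNAP47), for the gene that went the other way (TMEM63A) and for the head-to-head pair INTS7 and DTL, whose windows are the same DNA read from opposite strands over 290 of 300 bases. MARK1, NENF, BATF3, BPNT1, URB2 and PCNX2 were not matched; the other 48 genes were. The windows are from RefSeq on GRCh38.p14, 5′ to 3′ on the strand of the gene, and capitals mark the motifs CCAAT and GGGCGG and their reverse complements.
SNAP47, chr1:227728381-227728680, plus strand, the most upstream of 4 windows: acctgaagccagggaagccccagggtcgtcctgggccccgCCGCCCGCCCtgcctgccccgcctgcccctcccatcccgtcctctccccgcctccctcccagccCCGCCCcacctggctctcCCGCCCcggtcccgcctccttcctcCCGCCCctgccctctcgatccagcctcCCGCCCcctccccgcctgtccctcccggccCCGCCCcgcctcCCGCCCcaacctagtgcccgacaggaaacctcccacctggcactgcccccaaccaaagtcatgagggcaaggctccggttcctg
TMEM63A, chr1:225882331-225882630, minus strand: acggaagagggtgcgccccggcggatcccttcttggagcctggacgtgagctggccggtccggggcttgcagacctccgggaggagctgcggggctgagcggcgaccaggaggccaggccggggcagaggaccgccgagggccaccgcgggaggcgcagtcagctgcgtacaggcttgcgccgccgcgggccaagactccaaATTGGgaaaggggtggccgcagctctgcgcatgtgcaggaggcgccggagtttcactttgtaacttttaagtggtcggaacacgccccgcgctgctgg
DTL, chr1:212035498-212035797, plus strand: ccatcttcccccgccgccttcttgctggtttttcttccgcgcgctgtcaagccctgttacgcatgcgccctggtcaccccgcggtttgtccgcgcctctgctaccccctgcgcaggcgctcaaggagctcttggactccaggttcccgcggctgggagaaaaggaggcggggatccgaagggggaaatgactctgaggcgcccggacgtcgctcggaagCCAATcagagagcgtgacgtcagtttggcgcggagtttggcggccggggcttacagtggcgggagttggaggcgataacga
Of 4 short motifs searched on both strands, GGGCGG was in 66.7% of the 69 windows of these genes and in 45% of all 35116 windows (56.3% of the 22199 windows of protein-coding genes). CCAAT was in 31.9% of the windows of these genes, 34.6% of all windows and 34.7% of the windows of protein-coding genes. CCGGAAG was in 20.3%, 10.3% and 12.8% in the same order, and TATAAA in 5.8%, 11.5% and 9.47%. The motifs hold no copy of one another, several windows belong to 1 gene, and a match is a description of these letters only.

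Between INTS7 and TARBP1 lay 49 further tested rows that are not in the set, of which 36 were called higher and 6 lower in resistant cells, with a median log2 fold change of 0.54. Their absence from the set was also decided with this contrast known, so they describe the interval and test nothing. The 33 protein-coding rows among them had a median of 0.84, with 29 called higher and 2 lower. The 10 pseudogene rows had a median of 0.25, with 4 called higher and 2 lower. Over the 49 rows 73.5% were called higher and 12.2% lower, against 33.5% and 21.6% of all tested genes. The pseudogene rows, at 40% and 20%, lay near the shares of all tested genes. The most abundant of the rows called higher were H3-3A, a replication-independent histone H3, with 553 and 561 CPM in resistant and 347 and 350 CPM in wild type samples, and the replication-dependent histone H2BU1, with 195 and 202 CPM in resistant and 149.6 and 152 CPM in wild type samples. PARP1, the sensor of DNA strand breaks, read 186 and 198 CPM in resistant and 106 and 108 CPM in wild type samples, and the histone gene H2AW 134 and 129 CPM in resistant and 66.3 and 64.0 CPM in wild type samples. CENPF, a kinetochore protein, read 115 and 110.3 CPM in resistant and 74.1 and 90.3 CPM in wild type samples, and lost its call without resistant replicate 1 (limma, adjusted p = 0.059). Of these 5 genes, H2AW had a ratio of 2.02, close to the median of the set, and PARP1, H3-3A, CENPF and H2BU1 lower ratios of 1.80, 1.60, 1.37 and 1.31. The protein-coding genes called lower were EGLN1, the oxygen-sensing prolyl hydroxylase, and WNT9A, a WNT ligand. EGLN1 read 21.4 and 20.2 CPM in resistant and 31.2 and 24.5 CPM in wild type samples, and WNT9A 0.80 and 0.67 CPM in resistant and 1.59 and 1.71 CPM in wild type samples. EGLN1 lost its call without resistant replicate 1, resistant replicate 2 or wild type replicate 1 (limma, adjusted p between 0.0895 and 0.15), and WNT9A without resistant replicate 2 (adjusted p = 0.0572). The other rows called lower were the pseudogenes AC092809.3 and RPS7P3, the antisense row AC099066.2 and FLVCR1-DT; RPS7P3 and AC099066.2 each lost the call in some alternatives. Of the 6 rows called lower, 3 were left without resistant replicate 2 and 3 among rows with a mean of at least 5 CPM.

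Many of the 54 genes encode 1 subunit of a complex whose other subunits are encoded elsewhere, and those partner genes are not in the set, although their lists too were drawn up with results of these data known. Across 15 complexes and families, 82 partner genes were tested, 6 of them on chromosome 1 outside the interval. By limma's test 20 were higher and 12 lower in resistant cells, or 24.4% and 14.6%, against 33.5% and 21.6% of all tested genes. The counts were 9 higher and 5 lower without resistant replicate 1, 11 and 4 without resistant replicate 2, 19 and 20 under TMM scaling, and 13 and 25 under quantile normalization. The median log2 fold change of the partners was 0.08. In each of the 15 complexes every partner had a smaller log2 fold change than its distal 1q gene; this difference was not tested, because the distal 1q gene was chosen for its change.

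CUL4B, a scaffold of the CRL4 ligase that DTL directs, fell to 11.7 and 11.8 CPM in resistant samples, against 21.4 and 20.3 CPM in wild type samples (log2 fold change -0.78, limma adjusted p = 0.00029). DDB1, the adaptor of that ligase, fell by 0.27 on the log2 scale, a call that ended without resistant replicate 1 or 2 (adjusted p, limma, of 0.0763 and 0.105). DTL itself was 2.19 times higher. In the MIS12 complex, where NSL1 had a log2 fold change of 0.80, PMF1 and DSN1 fell by 0.51 and 0.36 on the log2 scale; PMF1 lost its call without resistant replicate 2 and DSN1 without resistant replicate 1 (limma, adjusted p = 0.0528 and 0.0622). In the cargo export machinery around MIA3, its paralog MIA2 and the coat subunit SEC23A fell by 0.54 and 0.40 on the log2 scale (limma, adjusted p = 0.00183 and 0.00219). The other partners in these 3 complexes, CUL4A, RBX1, MIS12, PREB and SEC24C, did not pass the test in the reported fit. Their log2 fold changes lay between -0.16 and 0.15. CUL4A was called lower under TMM, median-ratio and quantile scaling (limma, adjusted p between 0.0123 and 0.0196). SEC24C had a log2 fold change of 0.33 without wild type replicate 1.

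Partners that rose had smaller log2 fold changes than the distal 1q gene beside them, a difference that was not tested. In the Integrator complex 5 of 13 partners rose and 1 fell; INTS2 and INTS1 rose by log2 fold changes of 0.70 and 0.64 (limma, adjusted p = 0.00176 and 0.00336), against 0.91 for INTS7. In the MuvB core 3 of 4 partners rose, LIN52 by 0.56, LIN54 by 0.50 and RBBP4 by 0.39, against 1.26 for LIN9; each lost its call without resistant replicate 1 (limma, adjusted p of 0.0532, 0.0687 and 0.0606), and LIN54 also without resistant replicate 2 (0.0598). SRP68 of the signal recognition particle read 76.1 and 79.7 CPM in resistant and 49.5 and 48.3 CPM in wild type samples (limma, adjusted p = 0.000136), a log2 fold change of 0.66 beside 0.99 for SRP9. Among ARF GTPases, ARF6 read 114 and 127 CPM in resistant and 71.3 and 69.1 CPM in wild type samples (limma, adjusted p = 8.44e-05), while ARF3, ARF4 and ARF5 did not pass the test. COQ9 of coenzyme Q synthesis and ARMC8 of the CTLH ligase rose by log2 fold changes of 0.70 and 0.51 (limma, adjusted p = 0.000379 and 0.00103), against 0.73 for COQ8A and 1.04 for WDR26. Of 10 coenzyme Q partners 2 rose and COQ8B alone fell, by 0.41 on the log2 scale (limma, adjusted p = 0.0152). The call of COQ8B ended without resistant replicate 1, resistant replicate 2 or wild type replicate 1. PSENEN, a subunit of gamma-secretase, fell by 0.24 on the log2 scale (limma, adjusted p = 0.0327), a call that ended without resistant replicate 1, resistant replicate 2 or wild type replicate 2 (adjusted p between 0.0727 and 0.288). In the same complex APH1A and APH1B, with log2 fold changes of -0.28 and -0.35, did not pass the test. Both were called lower under TMM, median-ratio and quantile scaling (limma, adjusted p between 0.0116 and 0.0251). The partners in the remaining complexes had median log2 fold changes of -0.24 in gamma-secretase beside 1.20 for PSEN2, 0.10 in the COG complex beside 0.43 for COG2, 0.06 in the exocyst beside 0.69 for EXOC8, and 0.17 among the B56 subunits beside 0.75 for PPP2R5A. In the exocyst 2 of 8 partners rose and EXOC6B alone fell, by 0.49 on the log2 scale (limma, adjusted p = 0.00539). The call of EXOC6B ended without resistant replicate 2. RAB3GAP1 and TSN, the sole listed partners of RAB3GAP2 and TSNAX, had log2 fold changes of -0.13 and -0.12 and did not pass the test. Under quantile normalization both were called lower (limma, adjusted p = 0.0248 and 0.041).

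**Figure D4:**
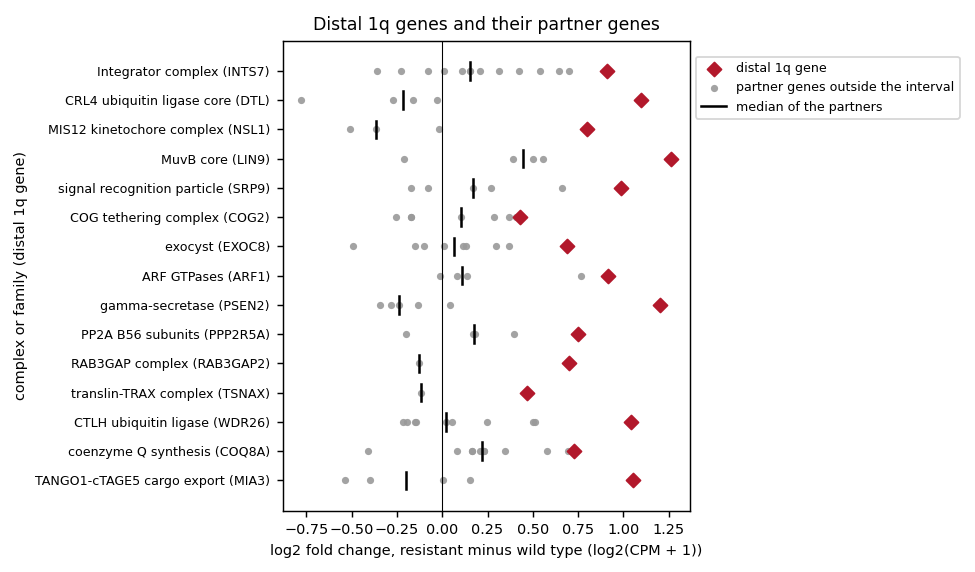
Log2 fold change (resistant minus wild type, log2(CPM + 1) scale) of 15 distal 1q genes (red diamonds) and of the other genes of the same complex or family (grey points), with the median of the partners as a black bar. All 82 partners lie left of the diamond in their row, and their overall median is 0.08.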

How the data were processed

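CAGE libraries of UM-UC-3 cells, 2 cisplatin-resistant and 2 wild type, were made by cap trapping from random-primed cDNA of total RNA, per the labels' protocols. The deposited table holds CPM values, each column scaled by the authors to its total over the listed genes and rounded to 0.01 CPM. Per the submitters' processing notes, BWA 0.5.9 was used and hg19 and mm9 are listed, with no role given for either build. No source states the counting tool, the annotation or whether strand was used.

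The 12587 of 13743 genes whose mean reached 1 CPM were compared on log2(CPM + 1), resistant minus wild type, with limma 3.58.1 in R 4.3.3 (eBayes with trend, Benjamini-Hochberg over all tested genes, threshold 0.05); the scale understates changes of low genes. Gene order came from GENCODE 29, which matched 99.3% of tested genes; its build may differ from the authors', so no gene coordinates are given. Groups follow the sample titles. The distal 1q genes, role lists and partner lists were chosen with earlier results of these data known. Named genes were those over 0.5 from the median of the set, those with overlapping groups and the extremes of each role. Also named were the most abundant called rows of the interval and up to 3 partners per complex by adjusted p. Others are named to account for the whole set or because they start head to head with a gene of the set. TOMM20, ZNF281, KDM5B, ZC3H11A, NFASC and NEK2 are named to mark places outside the interval. Reads per column were taken from the step of the CPM values; 94.7% of the values below 200 CPM in resistant replicate 1 lay within 0.1 step of a whole number, short of the 95% set as the minimum for recovered reads, so no count model was fitted and read numbers of that sample are approximate.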

Additional observations from a re-analysis of the deposited data

How the results depend on the processing

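The number of set genes called higher kept within 1.5 times its value of 49 under every alternative run, and the median log2 fold change stayed between 0.87 and 1.00. The median moved by more than the spread between sample pairs under TMM (0.89), median-ratio (0.89) and quantile scaling (0.87), and likewise without resistant replicate 1, wild type replicate 1 or wild type replicate 2; with 1 sample left out it lay between 0.90 and 0.97. Relative to the median of all tested genes it was 0.87 in the reported fit, 0.88 under TMM and 0.86 under quantile normalization. With a mean of at least 5 CPM, 0 set genes were called lower, because TMEM63A was not tested, and 3 other rows of the interval were. Leaving out 1 sample gave 2556 to 4316 higher and 1636 to 2787 lower genes over the whole table, 3 to 4 interval rows outside the set called lower, and 9 to 27 partners higher and 4 to 15 lower. Under quantile normalization 13 partners were higher and 25 lower, and under TMM and median-ratio scaling 20 were lower. The cause of these differences between settings was not tested. Of the log2 fold changes of the 71 genes picked by the naming rules, 28 lost and 11 gained a call in at least 1 alternative, and none reversed while called. Not all of these 71 genes appear in the text, and many genes in the text are not among them. The replicate numbers are shared between groups, and the titles do not state that they pair samples. The deviations of same-numbered samples correlated at -0.079, which cannot show whether such samples were prepared together. With the replicate block 48 set genes were higher and 1 lower. Calls over the whole table split into 4221 higher and 2724 lower in the reported fit, 3612 and 3367 under TMM, 3574 and 3420 under median-ratio scaling and 3518 and 3415 under quantile normalization, which move the median of all genes from 0.09 to 0.01. The planned edgeR and DESeq2 fits were not run, because whole reads were recovered below the 95% minimum in resistant replicate 1. Depth limits mainly MARK1, EXOC8 and PCNX2, with 9 to 19 reads in each wild type sample.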
